A study of Rattus norvegicus with 7 samples.

Results

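The transcripts of 38 genes of the synaptic vesicle and its release machinery were examined in RNA-seq libraries from rat hippocampus and hypothalamus. The genes were chosen by name, as a list of vesicle proteins, calcium sensors, fusion proteins, active zone scaffolds and endocytic proteins. All 38 were found among the 15892 gene symbols present in the tables of both tissues. The libraries came from male Sprague Dawley rats that were 2 months old at the start and received a diet containing the omega-3 fatty acid DHA for 6 weeks. There were 4 hippocampus and 3 hypothalamus libraries, each from poly-A selected RNA of a dissected piece of tissue. Chow-fed controls were not analysed here: every library came from a DHA-fed animal, and nothing below is an effect of the diet. The labels do not say whether each library came from a different rat, and the spread between libraries may therefore be partly technical.

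Neurons store transmitter in vesicles at the nerve terminal. The vesicle is tethered and primed at the active zone by large scaffold proteins, and fuses when calcium binds synaptotagmin and the SNARE proteins of vesicle and plasma membrane zip together. Complexins act on the assembled SNARE complex, NSF and its SNAP cofactors take it apart after fusion, and dynamin with its partners retrieves the membrane. Most of these proteins exist as several paralogs whose use differs between types of neuron. The hippocampus is rich in glutamatergic pyramidal and granule cells, the hypothalamus in peptidergic and GABAergic neurons. In such bulk tissue, fewer cells of a type and less RNA per cell cannot be told apart.

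Expression was given as FPKM (fragments per unit of transcript length and sequencing depth), with 1 table per tissue. The FPKM of a library summed to between 370020 and 391349 in hippocampus and between 443335 and 471484 in hypothalamus, and read depth is unknown. Because the tissues were given in separate tables whose locus numbers do not correspond, tissue and table cannot be told apart, and no test was made between tissues. Instead, each library was rescaled to the same sum over the symbols in both tables, and a gene was called higher in a tissue when no library of the other tissue reached any of its libraries and the means of log2(rescaled value + 1) differed by at least 2-fold. Differences are hippocampus minus hypothalamus on that log2 scale, followed by the pooled SD of the libraries around their tissue means (4 and 3 libraries). The dissections matched their labels by their markers: 8 of 8 hypothalamic peptide genes were higher in hypothalamus and 6 of 6 hippocampal genes in hippocampus. Replicate 1 of each tissue stood apart from the others. Of the symbols with more than 1 locus, 5 members in each tissue had a locus that read less than 0.1 of every other library in replicate 1. Among loci below 0.1 FPKM, at most 2.75% had a common ratio between replicate 1 and another library, against 10.5% to 25.7% between the other libraries of a tissue. Where the highest locus of a gene was such a locus, its difference is given with and without replicate 1. Sums over loci can also hold such loci and are given with all libraries only.

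Many release machinery transcripts were abundant in both tissues, and more of them were called higher in hippocampus than in hypothalamus. In hippocampus 20 of the 38 genes were among the top 5% of symbols by mean FPKM, and in hypothalamus 18 were. Of the 37 genes compared, 16 (43.2%) were called higher in hippocampus, against 14.5% of all 10736 compared symbols. The 16 were Syn2, Synpr, Sv2b, Syt1, Syt7, Syt11, Snap25, Stx1a, Cplx2, Rims1, Rims2, Bsn, Pclo, Unc13a, Erc2 and Dnm1. Toward hypothalamus 3 genes (8.11%), Sv2c, Vamp1 and Rab3b, were called higher in hypothalamus, against 13.4% of all symbols. By separation of the libraries alone, with no limit on the fold, 21 genes were higher in hippocampus and 3 in hypothalamus, beside 28.2% and 24.4% of all symbols (52.6% in either direction), and 13 overlapped. These counts were 18 and 4 as deposited and 19 and 4 with upper-quartile scaling. The shares of all symbols that separated under those scalings were not computed, so these counts have no base to be read against. With the 2-fold limit, 8.64% and 16.9% of all symbols were called as deposited, and 10.4% and 13.9% with upper-quartile scaling. The remaining gene, Rab3c, was left out of these counts because the status of its hippocampal value was not OK in replicates 1 and 3; with loci of any status it too was higher in hypothalamus. The median difference was 1.03 over the 37 genes and 0.05 over all compared symbols. Between the 4 ways of scaling the libraries, the median of all symbols moved from −0.21 to 0.05, while the genes' median stayed 0.95 to 0.98 above it. Of the calls, 13 in hippocampus and all 3 in hypothalamus were made under each of the 4 scalings; Syn2, Syt11 and Snap25 lost theirs with the FPKM as deposited.

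**Figure D1:**
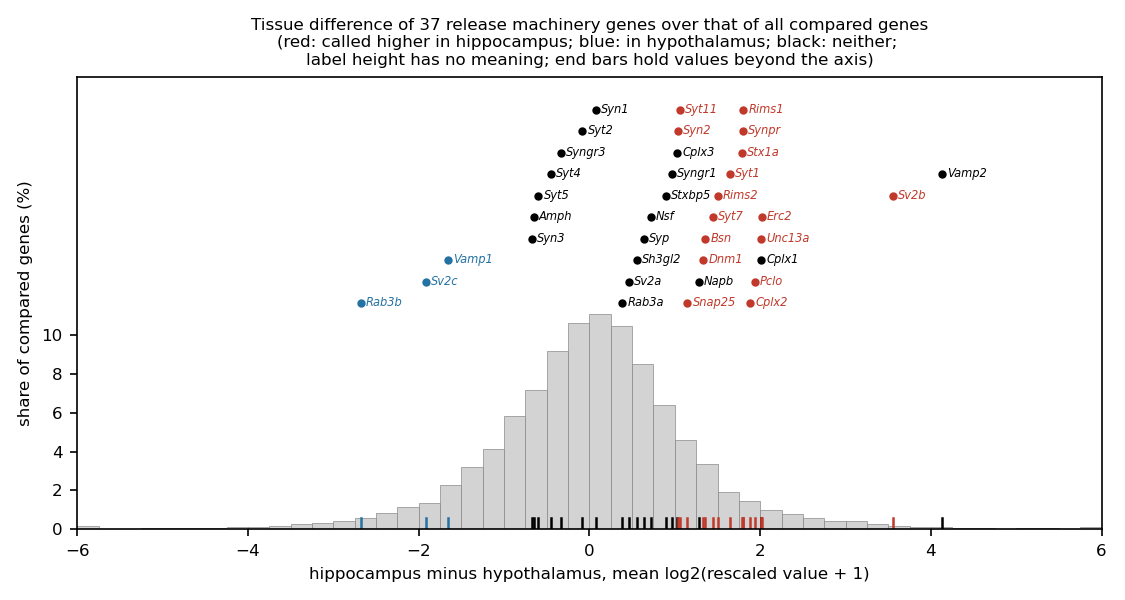
Difference between hippocampus and hypothalamus for the 37 genes (points and ticks, log2 scale, x axis) over the distribution for all 10736 compared symbols (grey bars, y axis in percent of symbols). The 16 red genes lie between 1.03 and 3.56, the 3 blue genes between −2.68 and −1.66, and Vamp2, at 4.13 but not called, had a hypothalamic library listed at 0.

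Markers of cell types are given here for comparison. Of 12 markers of neurons that are not synaptic, none was called higher in hippocampus and 4 were called higher in hypothalamus, with a median of −0.18. That median depended on replicate 1: Nefl, a neurofilament gene, read 0.174, 253, 174 and 288 FPKM in hippocampus, a gap of the same kind as at the loci above. Without replicate 1 of both tissues Nefl was called higher in hippocampus (1.09 instead of −1.31), the list had 2 calls in hippocampus and 4 in hypothalamus, and its median was 0.07. The mean level of the list ran from 7.62 to 8.04 (log2 scale) over the hippocampus libraries and from 7.99 to 8.25 over those of hypothalamus. Of 3 GABAergic markers 1 was called higher in hypothalamus and the median was −0.82. Without replicate 1 of both tissues 2 were, with a median of −1.04. Glutamatergic markers split by transporter: Slc17a7, the vesicular glutamate transporter of hippocampal and cortical neurons, differed by 9.74, and Slc17a6, the main one of the hypothalamus, by −2.37. Among other cell types, 2 of 4 endothelial markers were called in hippocampus (median 0.83), and 2 of 5 astrocyte (−0.40), 1 of 6 oligodendrocyte (0.11) and 1 of 6 microglial markers (−0.30) in hypothalamus. Choroid plexus markers had a median of 3.18 with no call among 4, since their mean level varied from 2.36 to 6.81 over the hippocampus libraries, against 2.13 to 2.74 in hypothalamus. Ttr, the transthyretin of choroid plexus, read 31.9 FPKM in hippocampus replicate 2 and 1967 to 5771 FPKM in the other hippocampus libraries. The part of these cell types in the differences of the release genes was not tested.

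The promoters of the genes with the largest differences are shown because these genes define the contrast: the 3 called higher in hypothalamus, then the 3 with the largest difference among those called higher in hippocampus. Each line holds the 250 bases before the start of the RefSeq gene, 5′ to 3′ on the gene's strand. Capitals mark GGGCGG (the GC box bound by Sp1), TGACGTCA (the cyclic AMP response element) and GGACAGC (the last part of the NRSF/REST element), read on either strand; these motifs do not overlap in the sequences shown.
Rab3b (GRCr8, chr5:128858841-128859090, plus strand): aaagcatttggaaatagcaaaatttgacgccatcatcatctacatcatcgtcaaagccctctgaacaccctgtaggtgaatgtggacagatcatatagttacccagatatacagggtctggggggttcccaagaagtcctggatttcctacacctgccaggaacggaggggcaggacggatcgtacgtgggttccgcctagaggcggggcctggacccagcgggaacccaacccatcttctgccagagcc
Sv2c (GRCr8, chr2:29163169-29163418, minus strand): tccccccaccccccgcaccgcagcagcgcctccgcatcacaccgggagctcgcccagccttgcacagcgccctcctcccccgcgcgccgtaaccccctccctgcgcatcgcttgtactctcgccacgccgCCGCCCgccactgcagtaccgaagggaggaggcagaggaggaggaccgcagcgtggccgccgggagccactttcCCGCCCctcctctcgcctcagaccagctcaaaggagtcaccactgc
Vamp1 (GRCr8, chr4:159698644-159698893, plus strand): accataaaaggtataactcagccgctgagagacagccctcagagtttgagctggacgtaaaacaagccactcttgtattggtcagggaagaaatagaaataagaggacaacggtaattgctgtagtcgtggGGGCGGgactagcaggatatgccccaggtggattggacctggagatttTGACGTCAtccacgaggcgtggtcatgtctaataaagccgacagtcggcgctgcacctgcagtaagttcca
Sv2b (GRCr8, chr1:138562259-138562508, minus strand): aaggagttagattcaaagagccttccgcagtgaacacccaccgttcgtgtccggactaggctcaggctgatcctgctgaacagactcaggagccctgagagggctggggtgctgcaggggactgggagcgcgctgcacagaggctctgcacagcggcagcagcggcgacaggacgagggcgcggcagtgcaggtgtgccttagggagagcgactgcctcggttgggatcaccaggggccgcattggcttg
Erc2 (GRCr8, chr16:2819262-2819511, plus strand): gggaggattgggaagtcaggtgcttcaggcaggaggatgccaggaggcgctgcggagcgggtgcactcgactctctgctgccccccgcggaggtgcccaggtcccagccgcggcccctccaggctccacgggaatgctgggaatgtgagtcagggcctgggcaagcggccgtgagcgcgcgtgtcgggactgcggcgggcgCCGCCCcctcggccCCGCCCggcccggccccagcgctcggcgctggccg
Unc13a (GRCr8, chr16:18415787-18416036, minus strand): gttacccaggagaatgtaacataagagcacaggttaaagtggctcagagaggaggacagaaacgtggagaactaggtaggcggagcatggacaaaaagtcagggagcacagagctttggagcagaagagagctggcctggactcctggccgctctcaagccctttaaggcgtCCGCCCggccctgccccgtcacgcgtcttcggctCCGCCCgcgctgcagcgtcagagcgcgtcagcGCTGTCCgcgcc
Of the 38 genes, 31 had an entry in the RefSeq promoter table (GRCr8); Syn3, Syngr1, Syngr3, Syt5, Syt7, Snap25 and Rims2 are named only. GGGCGG was in 21 of the 31 windows (67.7%), in 30.5% of all 33469 windows of the same length and in 58.8% of the 8318 windows of compared symbols. The windows had a median GC content of 64.4% and a median of 19 CpG sites, against 60.4% and 16 in the windows of compared symbols. TGACGTCA was in 3 (9.68%), those of Syn1, Vamp1 and Sh3gl2, against 2.87% of compared symbols. GGACAGC was in 3, those of Cplx3, Rab3c and Unc13a, against 5.87%. No window held TATAAA, the TATA box letters found in 6.23% of the windows of compared symbols, or TTCAGCACC, the opening part of the NRSF/REST element, found in 0.397%. Both Sv2c, called in hypothalamus, and Erc2, called in hippocampus, had 2 GGGCGG matches, and neither Rab3b nor Sv2b had any, so that the matches did not follow the direction of the call in these lines.

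Of the 10 proteins on the vesicle membrane or its surface, 3 were called in hippocampus and 1 in hypothalamus, beside 14.5% and 13.4% of all symbols. Their median difference was 0.55. The largest contrast was within SV2, a family of vesicle glycoproteins of which SV2A binds the antiepileptic levetiracetam and all 3 members serve as receptors of botulinum toxin A. Sv2b read 80.5, 102, 82.3 and 127 FPKM in hippocampus replicates 1 to 4, and 14.5, 8.22 and 7.53 FPKM in hypothalamus replicates 1 to 3. All hippocampus libraries were far above all of hypothalamus, a difference of 3.56 (pooled SD 0.40) or 11.8-fold. Sv2c went the other way, with 2.29, 3.93, 3.76 and 3.42 FPKM in hippocampus and 16.8, 14.9 and 17.7 FPKM in hypothalamus. Its difference was −1.91 (pooled SD 0.25), again with no overlap. Sv2a overlapped, at 142 ± 9.03 FPKM (SD, n = 4) and 131 ± 46.3 FPKM (SD, n = 3); its sign turned, from 0.47 to −0.21, when its loci were summed.

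Among the synapsins, which tether vesicles to each other and to actin, Syn2 was higher in hippocampus and Syn1 was not. Syn2 read 225, 204, 165 and 219 FPKM in hippocampus and 130, 101 and 135 FPKM in hypothalamus. The tissues did not overlap, but the difference of 1.03 (pooled SD 0.20) was just above the 2-fold limit and dropped under it with the other 3 scalings. It also dropped under it without hippocampus replicate 1 (0.98) or 4 (0.996) or hypothalamus replicate 2 (0.92). A second hippocampal locus of Syn2 read 0, 134, 72.1 and 173 FPKM, and with loci summed the difference was 1.52. Just under the limit was Syngr1, a synaptogyrin, at 0.97 (pooled SD 0.25) and without overlap, which passed it without hippocampus replicate 4 (1.10) or hypothalamus replicate 3 (1.03). Syn1 read 149 ± 14.9 and 179 ± 55.8 FPKM and overlapped, with a difference of 0.08 that was −0.22 without rescaling. Syn3 stayed low, at 1.70 ± 0.72 and 3.61 ± 1.57 FPKM.

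Synaptoporin (Synpr), a relative of synaptophysin known from mossy fibre terminals of the hippocampus, read 58.4, 103, 67.7 and 134 FPKM in hippocampus and 49.0, 23.6 and 23.7 FPKM in hypothalamus. The difference was 1.79 (pooled SD 0.57), with the lowest hippocampus library not far above the highest of hypothalamus. Synaptophysin itself (Syp) was among the most abundant members in both tissues, at 588 ± 82.4 and 465 ± 90.5 FPKM, and differed by 0.64. Its libraries separated on the rescaled values but overlapped as deposited and with upper-quartile scaling. Syngr3 overlapped, with 85.5 ± 23.2 and 130 ± 19.9 FPKM.

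Of the 6 synaptotagmins in the list, 3 were called higher in hippocampus and none in hypothalamus, with a median of 0.49; the shares of all symbols were 14.5% and 13.4%. Syt1, the calcium sensor of fast synchronous release, read 446, 584, 453 and 825 FPKM in hippocampus and 292, 185 and 197 FPKM in hypothalamus. Every hippocampus library exceeded every hypothalamus library, and the difference was 1.64 (pooled SD 0.39). Syt7, a slow high-affinity sensor, read 45.4 ± 4.93 and 20.2 ± 0.391 FPKM and differed by 1.45 (pooled SD 0.12). A second hypothalamic locus of Syt7 read 0, 4.44 and 18.2 FPKM, and with loci summed the difference was 1.01, barely above the 2-fold limit. Syt11, which does not bind calcium, differed by 1.06 (pooled SD 0.19) and lost its call without hippocampus replicate 4 (0.99) or without hypothalamus replicate 1 (0.98). Syt5 read 138, 118, 108 and 91.3 FPKM in hippocampus and 133, 224 and 311 FPKM in hypothalamus. Replicate 1 of hypothalamus lay inside the hippocampal range; without replicate 1 of both tissues the difference was −1.02 and Syt5 was called higher in hypothalamus. Syt4, found on dense-core vesicles, overlapped at 53.2 ± 17.0 and 88.6 ± 23.6 FPKM, and Syt2, the fast sensor of hindbrain synapses, was low in both tissues at 4.89 ± 0.342 and 6.48 ± 1.42 FPKM.

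Of the 10 SNAREs and their regulators, 3 were called in hippocampus and 1 in hypothalamus, again beside 14.5% and 13.4% of all symbols. Their median difference was 1.21. The vesicle SNARE Vamp1, typical of spinal cord and brainstem neurons, read 55.1, 41.0, 38.7 and 50.9 FPKM in hippocampus and 196, 162 and 181 FPKM in hypothalamus. No library overlapped, and the difference was −1.66 (pooled SD 0.21), or 3.16-fold higher in hypothalamus. A second hippocampal locus of Vamp1 read 0, 29.8, 22.7 and 24.5 FPKM, and with loci summed the difference was −1.19. The partners of Vamp1 on the plasma membrane were higher in hippocampus. Snap25 read 568, 687, 558 and 889 FPKM there against 323, 357 and 432 FPKM, a difference of 1.15 (pooled SD 0.26) that was 0.85 without rescaling. Stx1a, a syntaxin, read 93.3, 62.5, 69.5 and 56.8 FPKM against 17.0, 25.3 and 33.7 FPKM, a difference of 1.79 (pooled SD 0.38).

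Vamp2, the main vesicle SNARE of the forebrain, could not be placed. Its locus with the highest mean read 605, 1051, 1198 and 1516 FPKM in hippocampus, and in hypothalamus it was listed at 0 in replicate 1 and at 902 and 1030 FPKM in replicates 2 and 3. Without replicate 1 of both tissues the difference was 0.67 instead of 4.13, and with the FPKM of both loci summed it was 0.85, neither of them a call. Without hippocampus replicate 1 alone the libraries separated, but the difference of 4.38 still held the value listed at 0. The second Vamp2 loci of the tissues had matching neighbouring rows and a value in every library. They read 325, 239, 216 and 356 FPKM in hippocampus and 324, 444 and 563 FPKM in hypothalamus, with overlap and the higher mean in hypothalamus. Cplx1, a main brain complexin, had a gap like that of the highest Vamp2 locus, but in hippocampus. It read 10.4 FPKM in replicate 1 and 1687, 1419 and 1555 FPKM in the others. In hypothalamus Cplx1 read 115, 125 and 176 FPKM, and the difference of 2.01 became 3.80, a call, without hippocampus replicate 1. The hypothalamic values came from a locus whose neighbouring rows did not match those of the hippocampal locus. At the hippocampal locus whose neighbours did match, Cplx1 read 239, 250, 206 and 231 FPKM, all above hypothalamus, a difference of 1.08.

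Cplx2, the other main brain complexin, read 265, 148, 116 and 117 FPKM in hippocampus and 56.6, 43.9 and 51.5 FPKM in hypothalamus. The difference was 1.88 (pooled SD 0.45) with no overlap. Cplx2 had a second locus in each tissue that was listed at 0 in replicate 1 and at 130 to 201 FPKM in the other hippocampus libraries. Cplx3 was low and overlapped, at 1.86 ± 1.18 and 0.764 ± 0.231 FPKM; it was called higher in hippocampus without hippocampus replicate 3 (1.36) or hypothalamus replicate 3 (1.16). Stxbp5 (tomosyn, an inhibitor of SNARE assembly) and Nsf, the ATPase that takes SNARE complexes apart, separated without reaching 2-fold, at 0.90 and 0.72. Nsf overlapped as deposited (0.42) and with upper-quartile scaling (0.56). Stxbp5 reached 2-fold without hypothalamus replicate 1 (1.10). Napb, the brain form of the NSF cofactor SNAP, read 111, 127, 110 and 142 FPKM in hippocampus and 135, 41.4 and 41.4 FPKM in hypothalamus, with hypothalamus replicate 1 among the hippocampus libraries. Napb was not called at 1.28, but was called higher in hippocampus without replicate 1 of both tissues (1.89), without hypothalamus replicate 1 (1.86) or without hippocampus replicate 3 (1.32).

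**Figure D2:**
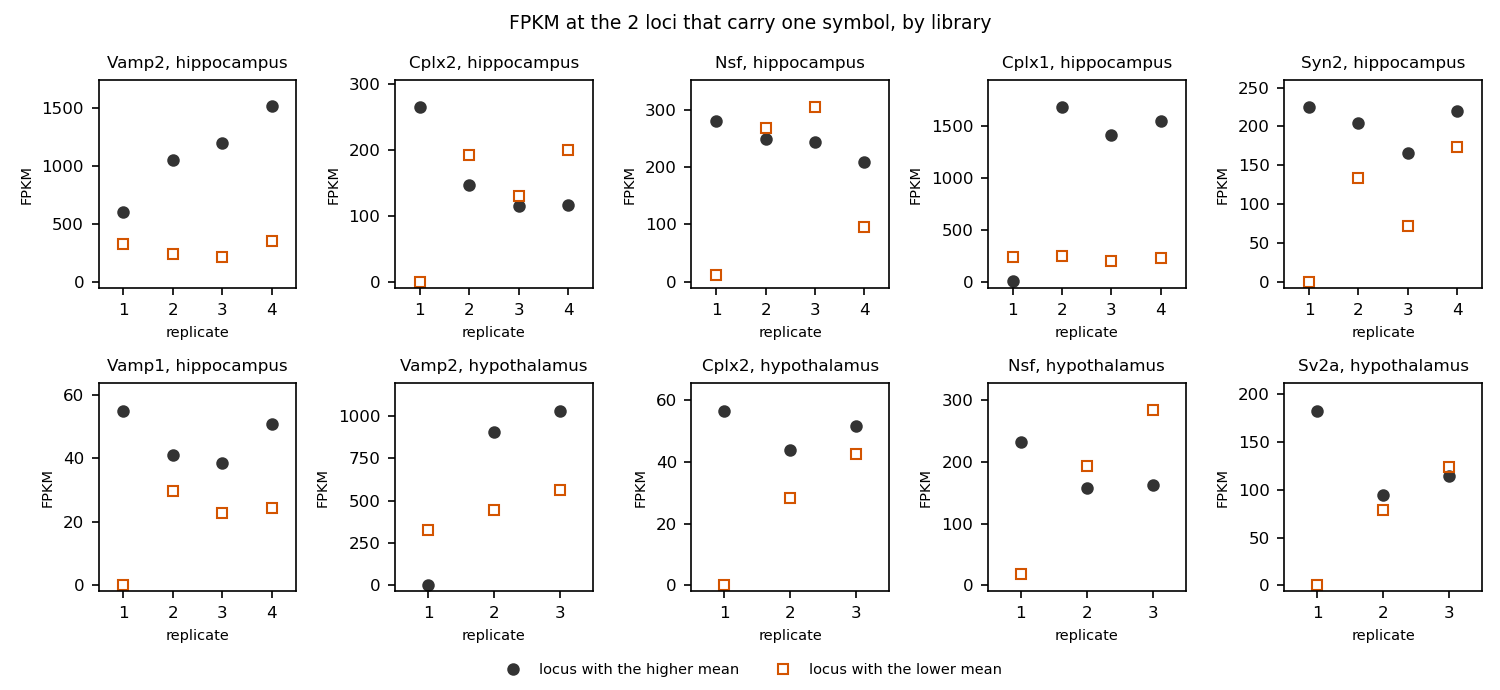
FPKM (y axis) at the locus with the higher mean (black points) and at the second locus (orange squares) of symbols that have 2 loci, by replicate (x axis), for 6 genes in hippocampus and 4 in hypothalamus. In replicate 1 a locus was at or near 0 for each of Cplx1 (10.4 FPKM), Cplx2, Syn2 and Vamp1 in hippocampus and Vamp2, Cplx2, Nsf (18.6 FPKM) and Sv2a in hypothalamus, while the other locus kept a value.

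All 6 active zone scaffold and priming genes in the list, Rims1, Rims2, Bsn, Pclo, Unc13a and Erc2, were called higher in hippocampus, where 14.5% of all symbols were, and each was so under all 4 scalings. With Rab3a and Rab3b, the group of 8 compared genes had a median of 1.65. Unc13a, which encodes the priming factor Munc13 of most excitatory synapses, read 56.5, 51.6, 47.8 and 45.0 FPKM in hippocampus and 12.02, 15.0 and 18.3 FPKM in hypothalamus. Its difference was 2.02 (pooled SD 0.20), and the lowest hippocampus library was more than 2-fold above the highest of hypothalamus. Erc2, the scaffold also called CAST, read 37.2, 43.0, 32.3 and 56.5 FPKM against 15.6, 10.2 and 11.6 FPKM, a difference of 2.02 (pooled SD 0.32).

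Bassoon (Bsn) and piccolo (Pclo), the giant scaffolds that mark the vesicle cluster, moved together across libraries. Pclo read 13.7, 14.0, 10.6 and 17.8 FPKM in hippocampus and 3.59, 4.37 and 4.46 FPKM in hypothalamus, a difference of 1.94 (pooled SD 0.24). Bsn read 30.8, 31.2, 24.5 and 38.9 FPKM against 11.5, 15.1 and 18.0 FPKM, a difference of 1.36 (pooled SD 0.27). Both were lowest in replicate 3 and highest in replicate 4 of hippocampus. Rims1, which links Rab3 on the vesicle to calcium channels, read 51.6, 64.5, 42.5 and 96.8 FPKM against 22.2, 19.4 and 22.0 FPKM, a difference of 1.80 (pooled SD 0.39). Its paralog Rims2 read 23.7, 28.1, 22.7 and 24.3 FPKM against 18.0, 7.24 and 8.49 FPKM. The difference was 1.51 (pooled SD 0.45), with hypothalamus replicate 1 above the other hypothalamus libraries. A second hypothalamic locus of Rims2 read 0, 8.65 and 6.91 FPKM, and a second hippocampal locus 0, 2.77, 0 and 16.9 FPKM. With loci summed Rims2 kept its call, but its difference fell to barely above the 2-fold limit.

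Rab3 proteins are the vesicle GTPases that bind the active zone. Rab3a, the main brain form, overlapped, with 495, 431, 384 and 300 FPKM in hippocampus and 227, 402 and 566 FPKM in hypothalamus. Its difference of 0.38 (pooled SD 0.46) became −0.07 without replicate 1 of both tissues. Rab3b, known from secretory cells, read 20.7, 20.0, 27.2 and 18.9 FPKM in hippocampus and 128, 176 and 224 FPKM in hypothalamus. No library overlapped, and the difference of −2.68 (pooled SD 0.30), or 6.40-fold, was the largest of any member in the direction of hypothalamus. Rab3c read 14.8, 16.9, 16.4 and 18.6 FPKM in hippocampus, where replicates 1 and 3 carried the failed status, and 112, 70.2 and 74.9 FPKM in hypothalamus. With loci of any status its difference was −2.03 (pooled SD 0.26).

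Of the 3 endocytic genes, Dnm1, the neuronal dynamin that pinches vesicles off the membrane, was higher in hippocampus. It read 498, 397, 385 and 257 FPKM there and 155, 181 and 215 FPKM in hypothalamus, a difference of 1.33 (pooled SD 0.34). Sh3gl2 (endophilin A1, which bends membrane) had 122 ± 16.9 and 102 ± 10.4 FPKM; its libraries separated on the rescaled values (0.56) but overlapped as deposited (0.26). Amph (amphiphysin, an adaptor of dynamin) was low in both tissues and overlapped on the rescaled values, at 0.970 ± 0.358 and 2.07 ± 0.330 FPKM.

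**Figure D3:**
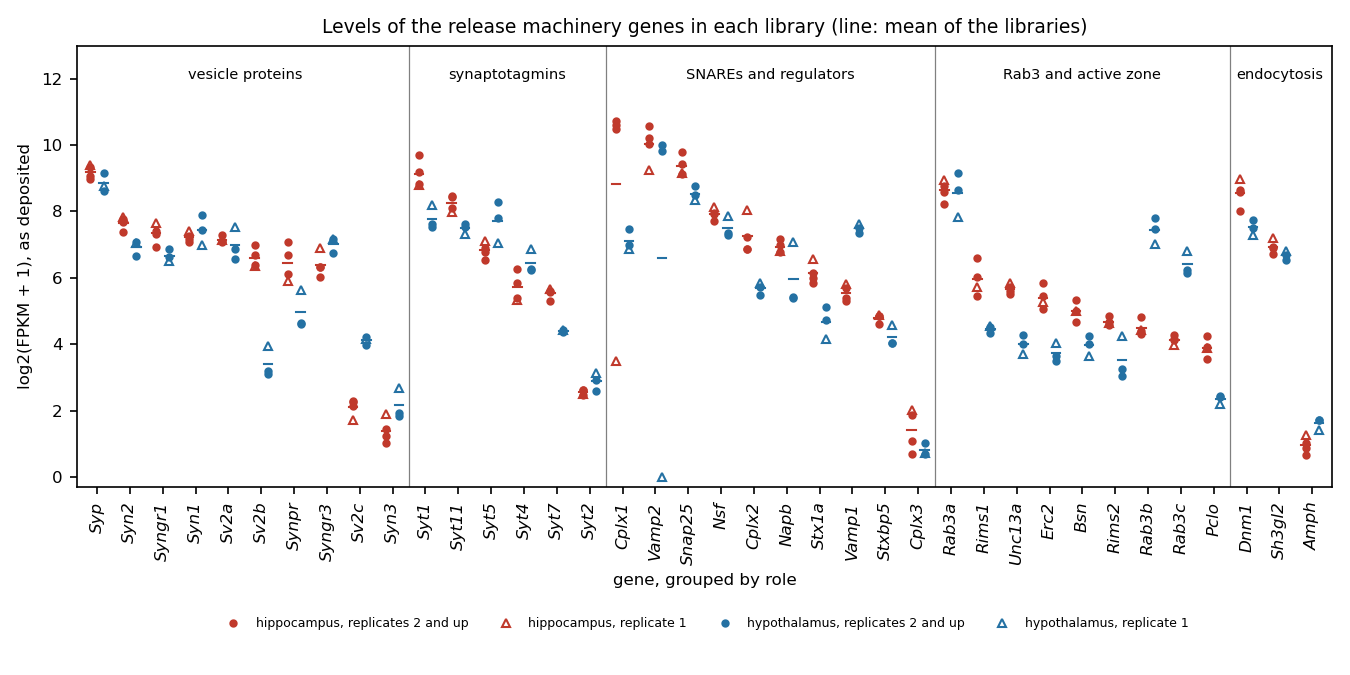
Level of the 38 genes in each of the 7 libraries, as log2(FPKM + 1) of the deposited values (y axis), with genes grouped by role on the x axis; red is hippocampus, blue hypothalamus, triangles mark replicate 1 and short lines the mean. Sv2b and all 6 active zone genes show every hippocampus library above every hypothalamus library, Sv2c, Vamp1, Rab3b and Rab3c show the reverse, and replicate 1 of Vamp2 in hypothalamus lies at 0.

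The share of each paralog in the summed FPKM of its family does not depend on how a library is scaled, and so compares the tissues without the rescaling above. Of 28 genes in 10 families, 8 had a share that was higher in every hippocampus library than in any of hypothalamus, 12 the reverse, and 8 overlapped. Shares of all genes were not computed; by level, 52.6% of all symbols separated in either direction. Shares within a family are not independent, since they sum to 100%. Sv2b made up 40.0% ± 5.18 (SD, n = 4) of SV2 transcripts in hippocampus and 6.37% ± 0.869 (SD, n = 3) in hypothalamus, while Sv2c made up 1.38% ± 0.291 and 11.0% ± 2.78. Sv2a was the main form in both tissues, with 58.6% ± 5.16 and 82.6% ± 2.57.

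Within Rab3, Rab3a took 91.0% ± 2.04 (SD, n = 4) in hippocampus and 58.7% ± 8.85 (SD, n = 3) in hypothalamus. The share of Rab3b was 5.04% ± 1.15 and 26.8% ± 0.798, with hypothalamus libraries within 25.9% to 27.3%. Rab3c took 3.94% ± 1.14 and 14.5% ± 8.31, its hypothalamic shares running from 8.65% to 24.0%. The tissues differed in Rab3b by many times its spread, whereas the hypothalamic shares of Rab3c ranged more widely than the tissue means differed.

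Synapsin and synaptogyrin shares changed places between the tissues. Syn2 was the major synapsin in hippocampus, at 57.4% ± 1.76 (SD, n = 4), and Syn1 in hypothalamus, at 58.0% ± 8.48 (SD, n = 3), although Syn2 was still 49.7% in hypothalamus replicate 1. Syngr1 took 65.8% ± 2.16 of the synaptogyrins in hippocampus and 43.9% ± 4.46 in hypothalamus, Syngr3 the remainder. Syt1 took 51.7% ± 5.14 and 30.4% ± 8.54 of the 6 synaptotagmins, and Syt5 10.8% ± 3.44 and 29.7% ± 10.4, both without overlap. The share of Syt4 was also higher in every hypothalamus library, at 4.75% ± 0.545 and 12.02% ± 3.45, although its level overlapped between the tissues.

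Bsn and Pclo kept nearly fixed proportions within a tissue. Bsn was 69.1% ± 0.475 (SD, n = 4) of their sum in hippocampus, from 68.6% to 69.7%, and 78.0% ± 2.02 (SD, n = 3) in hypothalamus. Both genes were higher in hippocampus, and Pclo by more. In the vesicle SNAREs, Vamp1 was 8.35%, 3.75%, 3.13% and 3.25% in hippocampus at the highest loci. It was 15.3% and 14.9% in hypothalamus replicates 2 and 3, where the highest Vamp2 locus had a value. With loci summed Vamp1 was 5.59%, 5.20%, 4.16% and 3.87% in hippocampus and 37.7%, 10.8% and 10.2% in hypothalamus. The RIM shares overlapped at the highest loci, but with loci summed Rims1 was 67.9% ± 2.05 in hippocampus and 56.3% ± 2.16 in hypothalamus, without overlap. The complexin shares overlapped because of hippocampus replicate 1, where Cplx1 took 3.72% against 91.9% to 92.9% in the other hippocampus libraries. At position-matched loci the Cplx1 share was lower in every hippocampus library, 59.9% ± 8.63 against 72.5% ± 5.25, so the order of the tissues depended on the locus.

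**Figure D4:**
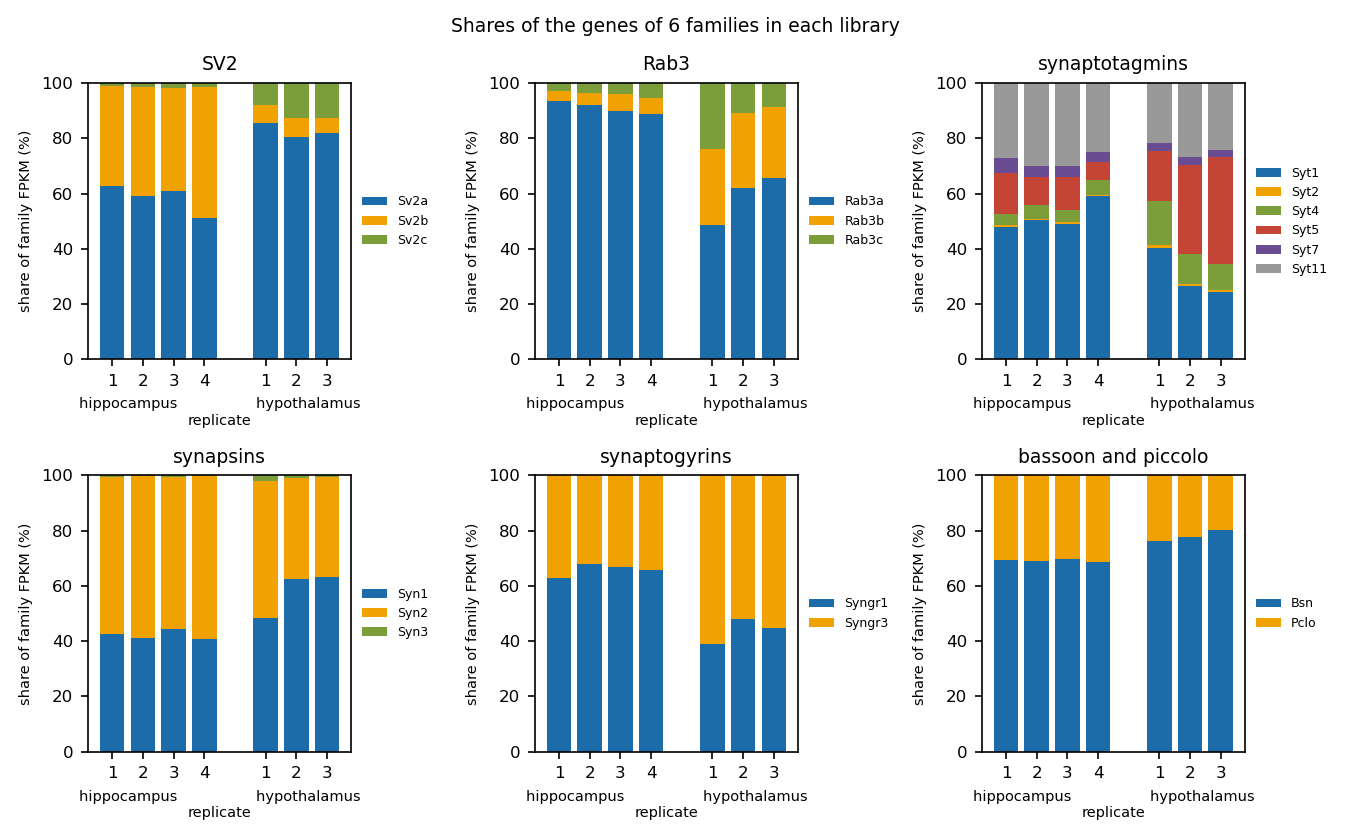
Stacked share of each gene in the summed FPKM of its paralog family (y axis, percent), 1 bar per library (hippocampus replicates 1 to 4, hypothalamus replicates 1 to 3), for 6 of the 10 families. The mean share of Sv2b is 40.0% in hippocampus and 6.37% in hypothalamus, that of Rab3b 5.04% and 26.8%, and the Bsn share is nearly level within hippocampus.

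Variation among the libraries of a tissue was compared with that of the loci that had status OK and a mean of at least 1 FPKM there (11197 in hippocampus and 11483 in hypothalamus); the 38 genes were not filtered. The median SD of log2(FPKM + 1) was 0.26 over the 38 genes and 0.24 over those loci in hippocampus, and 0.30 and 0.25 in hypothalamus. The library with the highest or lowest FPKM was compared over the 10309 and 10757 symbols whose highest locus passed the same filter. In hippocampus, 19 of the 38 genes were highest in replicate 1, the library that stood apart, against 30.5% of those symbols. Of the 38, 16 were lowest in replicate 3, against 15.5% of those symbols, and none in replicate 2, against 12.1%. In hypothalamus, 21 of the 38 were highest in replicate 3, against 35.4% of those symbols, and 21 were lowest in replicate 2, against 32.4%. Hippocampus replicate 4 had the highest value of 13 members, among them Sv2b, Syt1, Snap25, Rims1, Bsn and Erc2, and the lowest of 13 others, among them Syngr1, Syt5, Stx1a, Rab3a, Unc13a and Dnm1. Those counts were near the 33.1% and 36.7% of those symbols that were highest and lowest there.

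The remaining genes of the pathway were examined as a list of 65, of which 57 could be compared. Of these, 21 were called higher in hippocampus and 9 in hypothalamus, beside 14.5% and 13.4% of all symbols, and the median was 0.71. Among those with large differences toward hippocampus were Unc13b (2.43) and Syt12 (2.02). Unc13b, a paralog of Unc13a, had 10.7 ± 0.984 FPKM (SD, n = 4) in hippocampus against 2.08 ± 0.139 FPKM (SD, n = 3) in hypothalamus, and Syt12 read 27.7 ± 3.10 and 8.14 ± 1.65 FPKM. The largest toward hypothalamus were those of Syt9 (−2.88), Rims3 (−1.95) and Ap2s1 (−1.60). Syt9, a calcium sensor, had 2.28 ± 0.614 FPKM in hippocampus against 22.8 ± 0.698 FPKM in hypothalamus. Rims3, a short RIM paralog, read 6.51 ± 0.282 and 32.3 ± 4.20 FPKM, against the direction of Rims1 and Rims2. Ap2s1, a subunit of the clathrin adaptor AP-2, read 66.9 ± 6.58 and 250.1 ± 31.2 FPKM. By group, 7 of 12 other active zone genes were called in hippocampus and 2 in hypothalamus (median 1.28), with 7 of the 9 calls made under each of the 4 scalings. Of 12 other fusion genes 6 and 1 were called (median 0.90), of 9 other vesicle membrane and trafficking genes 2 and none (0.80), of 17 other endocytic genes 3 and 2 (0.26), and of 7 other synaptotagmins 3 and 4 (−1.14).

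The count of calls was also taken with other readings of the loci and without replicate 1. Counting only symbols with 1 locus in both tables, 8 of 20 genes were called higher in hippocampus and 2 in hypothalamus, beside 15.7% and 12.6% of such symbols, with a median of 0.63 against 0.12. With all loci of a symbol summed, 19 genes were called in hippocampus and 3 in hypothalamus, beside 14.5% and 14.1% of all symbols. Without replicate 1 of both tissues, 19 genes were called in hippocampus and 4 in hypothalamus, beside 18.1% and 15.9% of all symbols in that setting.

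**Figure D5:**
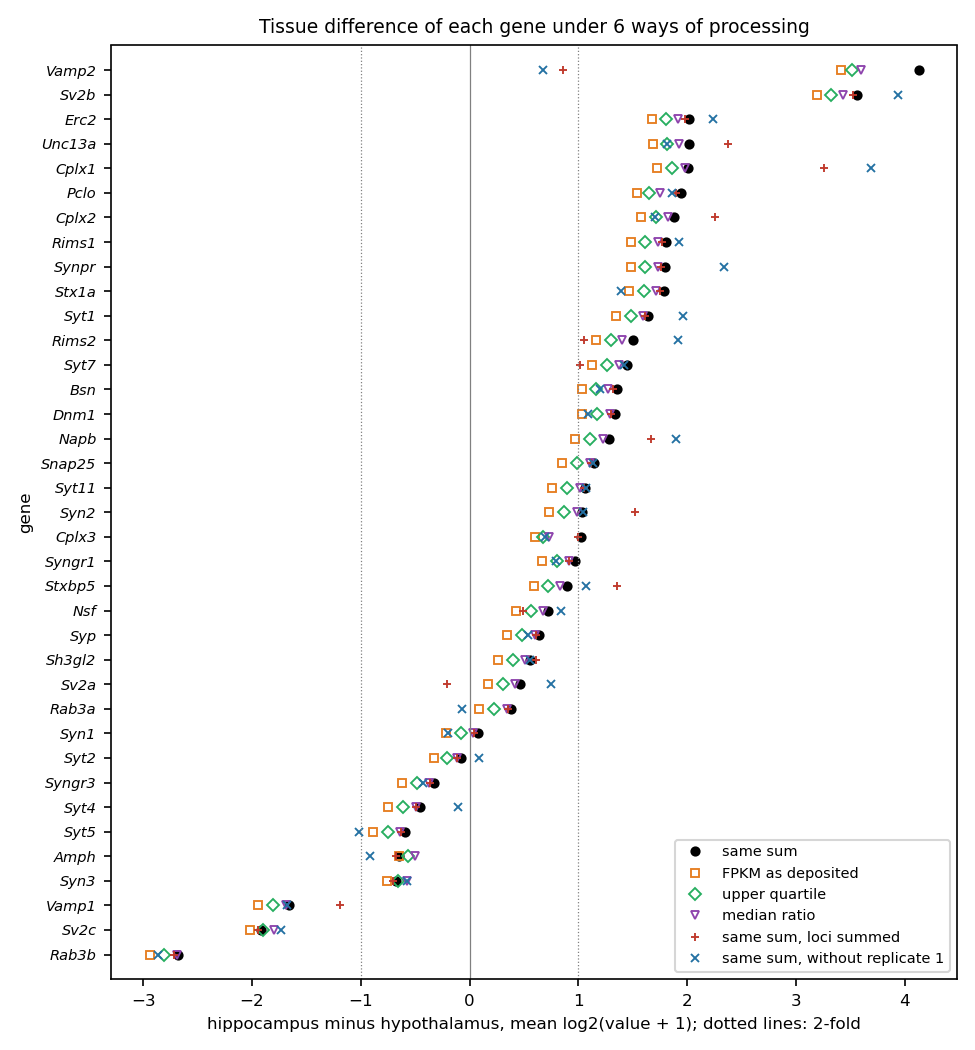
Difference between hippocampus and hypothalamus (log2 scale, x axis) of each of the 37 genes (y axis) under the 4 scalings, with loci summed, and without replicate 1 of both tissues; dotted lines mark 2-fold. Sv2b stays between 3.19 and 3.93 and Rab3b between −2.94 and −2.68, whereas Vamp2 (0.67 to 4.13) and Cplx1 (1.73 to 3.69) span more than any other gene.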

How the data were processed

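The authors deposited 1 FPKM table per tissue, with a status per value. The submitters' processing notes name TopHat, TopHat2, Bowtie, Bowtie2, Cufflinks, Cuffdiff and the rat build rn5, without versions or roles; annotation, strand setting and normalization are not given in the sources used here. Without a stated strand setting, overlapping genes and antisense genes may share reads. Of 10839 locus numbers present in both tables only 58 carried the same symbol, so the tables were treated as separate runs.

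A symbol was represented by its most highly expressed locus (by mean FPKM) among loci whose status was OK in every library. Libraries were rescaled to a sum of 1000000 over shared symbols. Symbols that averaged 1 FPKM or more in either tissue were compared on log2(value + 1). The comparison describes overlap and fold and is not a test. Alternatives were other scalings, pseudocounts of 0.1 and 5, filters, summed, single or position-matched loci (sharing at least 30% of the 10 neighbouring rows on each side), and leaving out libraries; loci of any status and position-matched loci were chosen after seeing the data. A locus was counted as low in replicate 1 when it was under 0.1 of every other library, with those at 5 FPKM or more. The members, lists and rules were chosen with earlier results of these data known: every member is named, and of the wider list the 3 called symbols with the largest difference in each direction, 1 of which is not reported here. Promoters came from RefSeq. The calculation was tested on simulated data. Python 3.11.15, pandas 2.3.3, numpy 2.4.6, scipy 1.17.1 and matplotlib 3.10.9 were used.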

Additional observations from a re-analysis of the deposited data

Results flagged for a closer look

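In the 4 hippocampus libraries, 66 levels and shares of the genes were examined for a library that stood far from the rest (by Dixon's ratio of the gap to the nearest library over the whole range, at its 95% limit), and 7 stood out, where chance gives about 3.3. Of these, 2 were levels. Stxbp5 was lowest in replicate 3 (gap over range 0.851), at 23.5 FPKM against 27.9 to 28.6. Cplx1 was lowest in replicate 1 (0.840), at 10.4 FPKM against 1419 to 1687.

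The other 5 were shares, which within a family are not independent. Vamp1 was highest and Vamp2 lowest in replicate 1 (0.881 for each). In the same library Cplx1 was lowest (0.989), Cplx2 highest (0.988) and Cplx3 highest (0.888) among the complexins. The cause was not tested.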

How the results depend on the processing

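No call turned to the other tissue under any alternative. With single-locus symbols only, 8 genes were called higher in hippocampus instead of 16, with a median difference of 0.63 instead of 1.03; that setting compares 20 genes instead of 37. Leaving out each replicate in turn gave 15 to 18 genes higher in hippocampus, 3 in hypothalamus and a median from 0.96 to 1.12, beside 13.8% to 16.9% and 13.1% to 15.2% of all symbols. Syn2 and Syt11, at 1.03 and 1.06, lost their calls in some of these, and Syngr1, Vamp2, Stxbp5, Cplx1, Cplx3 and Napb gained one in some. Without rescaling 8.64% of all symbols were called in hippocampus and 16.9% in hypothalamus, with 13 and 3 of the genes. Of 683 differences of single genes under an alternative, 652 stayed within 1 SD of the reported value, as did 298 of 308 shares. Of the differences outside 1 SD, 16 came from the FPKM without rescaling. Much of this was fixed in advance, so these counts say little about stability. Leaving out 1 library cannot move such a mean by 1 SD, and the filters on low values leave each difference as it was. Of 494 SDs of single genes under an alternative, 88 moved beyond the limit set for a ratio of SDs. Vamp2 (0.42 without hypothalamus replicate 1, against 4.13) and Cplx1 (3.80 without hippocampus replicate 1, against 2.01) changed widely while inside their SDs of 4.09 and 2.78. Summing loci added Stxbp5 (1.35), Cplx1 (3.26) and Napb (1.67) to the genes higher in hippocampus. The wider list gave 14 to 22 genes in hippocampus and 7 to 10 in hypothalamus, while the shares of all symbols ran from 8.64% (where it gave 14) to 18.1% and from 9.14% to 16.9%. No paired analysis was possible because the tissue comparison comes from no test and the labels do not say which libraries share a rat. Read depth is unknown, so genes near 1 FPKM (Syn3, Cplx3, Amph) have unknown precision.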

Other observations

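Of the synaptotagmins outside the 38 genes, all 7 that were compared were called, where 27.9% of all symbols were called in either direction, and 6 of the 7 kept the call under each of the 4 scalings. Syt6, Syt9, Syt10 and Syt13 were higher in hypothalamus and Syt3, Syt12 and Syt17 in hippocampus. Syt10 read 0.959, 1.07, 1.08 and 0.933 FPKM in hippocampus and 5.04, 3.77 and 4.43 FPKM in hypothalamus, a difference of −1.53. Syt17 read 27.6, 60.5, 36.8 and 51.9 FPKM against 14.2, 12.7 and 13.9 FPKM, a difference of 1.90. The single gene of these whose call depended on scaling was Syt3 (1.19). These genes other than Syt9 and Syt12 were named after their values were seen.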
